A study of Mus musculus with 14 samples.

Results

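The SR proteins are splicing factors named for a tail rich in serine and arginine, and 7 genes encode the classical members other than Srsf1: Srsf2, Srsf3, Srsf4, Srsf5, Srsf6, Srsf7 and Srsf9. They were taken from the deposited transcript table by gene symbol, which gave 7 of its 54446 genes and 42 of its 137767 transcripts. They were followed in C57BL/6 mice whose hepatocytes had lost Srsf1, the founding member of the family. The question addressed here was how the levels and the transcript forms of the remaining family members stood when 1 member was removed.

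SR proteins bind RNA through RNA recognition motifs, and their serine and arginine tails recruit the splicing machinery and carry phosphate groups that control where the proteins reside. They help to define exons and to choose between competing splice sites. SRSF1 is best known for favouring the splice donor closest to the next exon. SR genes also restrain themselves and each other: many contain a so-called poison exon or a retainable intron, and an mRNA that includes it carries an early stop codon and is a target of nonsense-mediated decay (NMD). In mouse liver, SRSF3 is known to be needed for hepatocyte maturation.

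RNA of purified, flash-frozen hepatocytes was sequenced from stranded libraries, and the 14 libraries form 6 groups. Hepatocyte knockout animals (HKO) carried srsf1f/f;albcre+/-, in which an albumin-Cre transgene deletes floxed Srsf1, and were sampled at postnatal day 10 (P10) and at 1 month, with 2 libraries at each age. Their controls were albcre+/- animals of the same ages, again with 2 libraries each, and are not stated to carry the floxed allele. In the acute model, srsf1f/f animals were injected at 8 weeks of age with AAV8 carrying either iCre (acute HKO) or GFP, both under the hepatocyte promoter TBG, and were sampled 2 weeks later, at 10 weeks, with 3 libraries each. All acute animals carried the floxed allele, and only the acute HKO animals received iCre. Nothing in the labels says that replicates came from separate animals, so p-values measure the spread between these libraries, which may be technical.

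Levels are in TPM, which give each transcript, after correction for its length, as a part of everything expressed in its library. How deeply each library was sequenced cannot be read from them. Libraries of the same group correlated at 0.976 to 0.994 across genes on the log2 scale. Srsf1, the targeted gene, measured 30.0 and 23.4 TPM in HKO libraries at P10, against 43.6 and 46.4 TPM in controls. It measured 7.74 and 9.17 TPM in HKO libraries at 1 month, against 23.2 and 20.01 TPM in controls. Acute HKO libraries held 3.69, 5.34 and 4.16 TPM of it, against 16.5, 29.7 and 32.3 TPM in acute GFP libraries. Every knockout library was below every control library of its comparison. Detection is no measure of purity, but all 8 hepatocyte markers, with albumin among them, were detected in every group. They summed to 59055 to 75078 TPM in HKO libraries at P10 and 107561 to 112737 TPM in controls, 50464 to 68027 TPM in HKO libraries at 1 month and 62852 to 79587 TPM in controls, and 31992 to 49970 TPM in acute HKO and 41040 to 53918 TPM in acute GFP libraries.

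The groups also differed in markers of other cells. The 8 macrophage markers, none at 0 in any group, summed to 316 to 434 TPM in HKO libraries at P10 and 290 to 302 TPM in their controls. At 1 month the sums were 37.3 to 104.2 TPM in HKO libraries and 10.55 to 12.1 TPM in controls, and in the acute model 5.56 to 32.6 TPM in acute HKO and 3.51 to 8.97 TPM in acute GFP libraries. The 8 endothelial markers summed to 114.7 to 127.7 TPM in HKO libraries at P10 and 100.8 to 101.4 TPM in controls, to 13.5 to 42.98 TPM in HKO libraries at 1 month and 9.34 to 11.7 TPM in controls, and overlapped in the acute model. The 8 stellate cell and fibroblast markers summed to 131.5 to 173.7 TPM in HKO libraries at P10 and 113.7 to 127.03 TPM in controls, to 10.16 to 27.4 TPM in HKO libraries at 1 month and 4.82 to 5.01 TPM in controls, and overlapped in the acute model. The 8 bile duct markers summed to 118.5 to 149 TPM in HKO libraries at P10 and 57.0 to 69.3 TPM in controls, and at 1 month to 20.4 to 34.8 TPM in HKO libraries and 1.59 to 1.97 TPM in controls, where Cftr and Cldn4 were at 0. The 8 red cell markers summed to 484 to 2907 TPM in HKO libraries at P10, 229 to 385 TPM in controls, and 15.7 TPM or less in both 1 month groups. In the acute model they summed to 8.90 to 12.8 TPM in acute HKO and 30.8 to 48.3 TPM in acute GFP libraries. Neutrophil markers, again 8, overlapped at P10 (105.5 to 478 TPM in HKO libraries, 176 to 245 TPM in controls) and at 1 month. Acute HKO libraries held 0.408 to 1.19 TPM of them, and acute GFP libraries 0.0759 to 0.276 TPM. Markers of T, NK and B cells overlapped at P10. They summed to 0.258 to 0.473 TPM in HKO libraries at 1 month and 0.129 to 0.159 TPM in controls. Acute sums were 0.277 to 0.610 TPM with HKO and 0.0631 to 0.208 TPM with GFP. The part of these cells in the results below was not tested, and in bulk libraries fewer cells of a type and less RNA per cell cannot be told apart.

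The transcripts that carry the changes described below are shown first. Srsf5 lies on the plus strand of chromosome 12 (80945504 to 80950507, GRCm38), and its first exon, all 5′ untranslated, ends at different splice donors in different transcripts. Srsf5-201, Srsf5-202 and Srsf5-206 leave at base 80945672 and Srsf5-212 leaves 4 bases earlier. The coding transcript Srsf5-205 and the short processed transcript Srsf5-211 leave at base 80945798, which adds 126 bases to exon 1 and lies closer to exon 2, whose acceptor is at 80946576. The start codon at 80946595 lies in exon 2, so in the coding transcripts these donors change the 5′ untranslated region and not the protein. Srsf5-211 has no annotated coding sequence and ends in a longer exon 2, of 273 bases against 145 in Srsf5-205. The 30 bases around the upstream donor, with the first 2 intron bases at that site in capitals, and the last 30 bases before the downstream donor, with the last 3 exon bases in capitals, are as follows (chr12:80945658-80945687 and chr12:80945769-80945798).
Srsf5 upstream donor: gaccctgtccggtagGTgagtggcacgctt
Srsf5 downstream donor: cggcgactcagagagcgcagttgatttGAG

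Srsf6 lies on the plus strand of chromosome 2 (162931528 to 162937121). The NMD transcript Srsf6-201 includes a poison exon of 268 bases (chr2:162932815-162933082) between exons 2 and 3 of the coding transcript Srsf6-203, and Srsf6-204 keeps that whole intron of 1283 bases. Srsf3, on the plus strand of chromosome 17 (29032628 to 29043373), has a poison exon of 456 bases (chr17:29039454-29039909) in Srsf3-201, and Srsf4, on the plus strand of chromosome 4 (131873617 to 131901706), has one of 207 bases (chr4:131884276-131884482) in Srsf4-203. The start of each of these 3 exons is given up to the stop codon that ends its reading frame, in capitals. The stop codon ends at base 34, 115 and 152 of the exon in Srsf3, Srsf4 and Srsf6, and no earlier one stands in frame within the exon. All sequences are from GENCODE M21 transcripts on GRCm38.
Srsf3 poison exon: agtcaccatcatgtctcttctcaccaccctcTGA
Srsf4 poison exon: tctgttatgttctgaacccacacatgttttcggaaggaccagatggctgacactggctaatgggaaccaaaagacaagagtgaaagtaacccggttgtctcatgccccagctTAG
Srsf6 poison exon: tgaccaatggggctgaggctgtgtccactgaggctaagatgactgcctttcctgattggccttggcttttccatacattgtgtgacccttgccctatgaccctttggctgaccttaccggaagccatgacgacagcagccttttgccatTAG

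**Figure D1:**
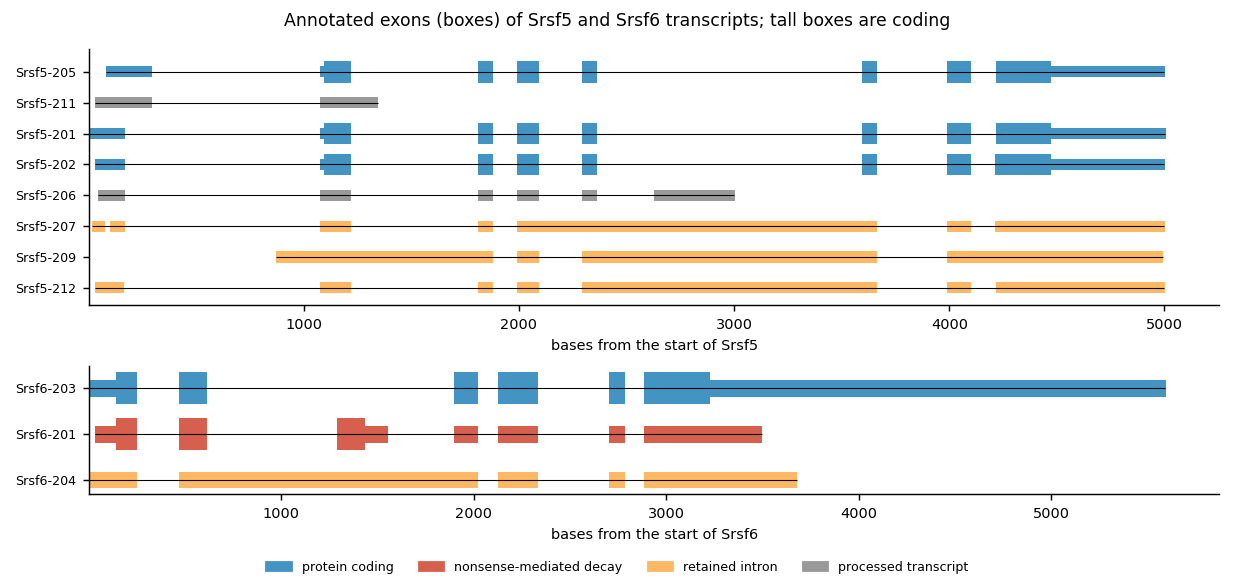
Annotated exons of the Srsf5 and Srsf6 transcripts that averaged at least 1 TPM in any group, by distance in bases from the start of each gene; boxes are exons, tall boxes coding sequence, colours the annotated class. Srsf5-205 and Srsf5-211 have the longer exon 1, Srsf6-201 has the extra exon of 268 bases, and Srsf6-204 has the intron around it retained.

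The 7 genes were expressed in every library. Srsf5, which binds exonic enhancers and is known to respond to growth and metabolic signals, was the most abundant in each of the 6 groups, and Srsf7, which also helps to export mRNA, the least abundant in the 4 groups at 1 month and in the acute model. In HKO libraries at P10 the mean levels ran Srsf5 166, Srsf2 78.1, Srsf6 64.5, Srsf3 53.4, Srsf9 33.8, Srsf7 22.1 and Srsf4 19.99 TPM, and in P10 controls Srsf5 163, Srsf2 60.04, Srsf6 42.7, Srsf3 37.3, Srsf9 20.3, Srsf7 16.6 and Srsf4 12.1 TPM. No neighbours in these orders overlapped between libraries. In acute HKO libraries the order was Srsf5 58.1, Srsf4 21.6, Srsf2 19.7, Srsf6 15.4, Srsf3 10.9, Srsf9 8.32 and Srsf7 4.80 TPM. In acute GFP libraries it was Srsf5 97.1, Srsf2 42.7, Srsf6 25.1, Srsf3 15.4, Srsf4 13.1, Srsf9 10.9 and Srsf7 7.98 TPM. Srsf4, Srsf2, Srsf6 and Srsf3 overlapped with their neighbours in acute HKO libraries, as did Srsf3, Srsf4, Srsf9 and Srsf7 in acute GFP libraries. Srsf4 held the second place by mean in acute HKO libraries and the fifth in acute GFP libraries.

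**Figure D2:**
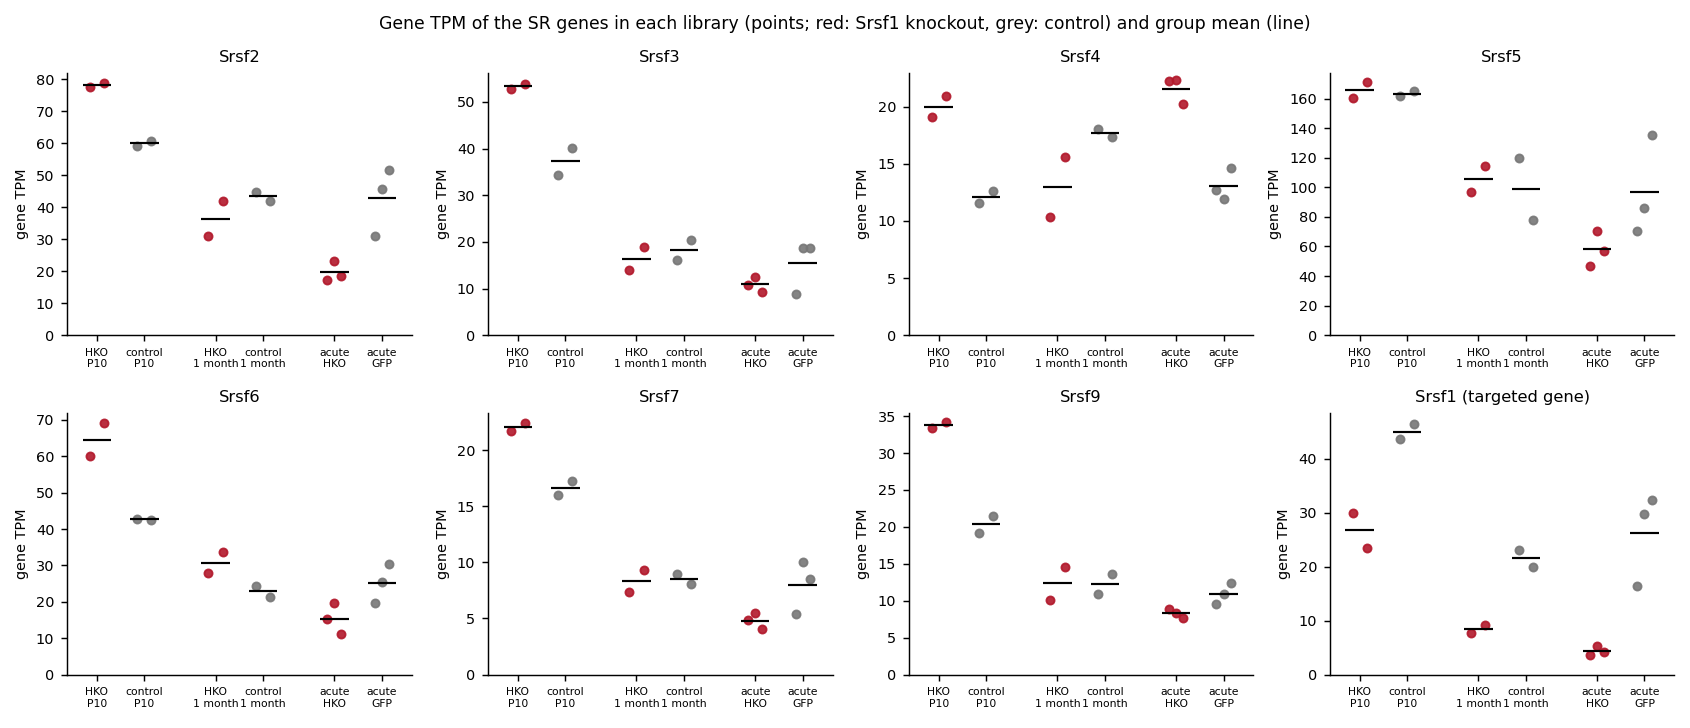
Gene TPM of the 7 SR genes and of Srsf1 in each library (points, red for knockouts and grey for controls) with the group mean (line), each panel on its own axis from 0. Srsf4 was higher in knockouts at P10 and in the acute model and lower at 1 month, and the other genes were highest at P10.

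The sum of the 7 genes was 425 and 450.2 TPM in HKO libraries at P10, against 345 and 359.5 TPM in controls. It was 198 and 248 TPM in HKO libraries at 1 month, against 243 and 201 TPM in controls. It was 126, 162 and 128 TPM in acute HKO libraries, against 157, 208 and 271 TPM in acute GFP libraries. The groups were apart at P10 and overlapped at 1 month and in the acute model.

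Because the TPM of a library add up to a fixed total, a few very abundant genes shift all others, and the median of the log2 fold changes over tested genes was 0.25 at P10, -0.001 at 1 month and -0.36 after acute loss. Fold changes of single genes are given relative to that median, with their standard error. Adjusted p-values are those of limma on log2(TPM + 1) as deposited, with Benjamini-Hochberg adjustment over all genes tested and a threshold of 0.05, and all 7 genes passed the minimum mean of 1 TPM. The tests are of the change before the median is taken off, so a p-value does not test the relative change printed beside it. Each test was repeated after rescaling the libraries by the median of their gene ratios. Among all genes tested, 10.8% passed as higher and 1.87% as lower at P10 on deposited TPM, and 6.22% and 6.08% after rescaling (12.3% in all). The split at 1 month was 4.87% higher and 1.99% lower on deposited TPM, and 6.82% and 7.84% after rescaling (14.7% in all). For acute loss it was 591 genes (5.93%) higher and 3467 (34.8%) lower on deposited TPM, and 1391 and 2730 after rescaling (41.6% in all).

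At P10, levels of 6 of the 7 genes were higher in both HKO libraries than in both controls, but none passed the test. Across all genes, 12.7% passed, and 62.6% had both HKO libraries above both controls (75.9% were apart in either direction), so the count of 6 stands beside a general shift. Unadjusted limma p-values were under 0.05 for 3 of the 7, Srsf4, Srsf6 and Srsf9, beside 29.7% of all genes. Srsf9, a small family member close in sequence to SRSF1, measured 33.4 and 34.2 TPM in HKO libraries and 19.2 and 21.5 TPM in controls. Srsf4 measured 19.04 and 20.9 TPM in HKO libraries and 11.57 and 12.6 TPM in controls. The relative log2 fold changes were 0.46 ± 0.24 for Srsf9 (SE; limma adjusted p 0.0742) and 0.43 ± 0.23 for Srsf4 (limma adjusted p 0.0790). Srsf6 measured 60.0 and 69.1 TPM in HKO libraries and 42.8 and 42.5 TPM in controls, a relative change of 0.33. Srsf5 did not separate, with 160.4 and 170.9 TPM in HKO libraries and 162 and 165 TPM in controls.

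At 1 month none of the 7 genes passed, beside 6.86% of all genes. None had an unadjusted limma p under 0.05, beside 18.8% of all genes. Levels of 3 of them stood apart without overlap, Srsf6 higher and Srsf2 and Srsf4 lower, beside 21.1% of all genes higher and 15.6% lower (36.6% in all). Srsf4 was lower in HKO libraries, with 10.3 and 15.6 TPM against 18.1 and 17.4 TPM in controls, opposite to its direction at P10. Its relative log2 fold change was -0.45 ± 0.23 with a limma adjusted p of 0.342, which became 0.0360 after rescaling by median ratios and 0.0330 without HKO replicate 2, the library at 15.6 TPM. Srsf2 measured 31.1 and 41.9 TPM in HKO libraries and 44.9 and 42.0 TPM in controls. Srsf6 measured 27.8 and 33.7 TPM in HKO libraries and 24.3 and 21.4 TPM in controls, the highest relative change of the 7 at this age, 0.41 ± 0.23 (limma adjusted p 0.379). The other 4 genes overlapped between the groups.

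Acute loss changed 5 of the 7 genes, 1 higher and 4 lower, beside 40.7% of all genes. Srsf4, a larger member with a long serine and arginine tail, rose, with 22.2, 22.3 and 20.2 TPM in acute HKO libraries against 12.7, 11.9 and 14.6 TPM in acute GFP libraries. Every acute HKO library was above every acute GFP library, and the relative log2 fold change was 1.05 ± 0.19 (limma adjusted p 0.00930). Srsf2, which is known to activate exons through mixed enhancer motifs and to act in transcription, fell to 17.3, 23.1 and 18.6 TPM in acute HKO libraries, against 30.9, 45.7 and 51.6 TPM in acute GFP libraries. Its groups were apart too, and its relative change was -0.70 ± 0.22 (limma adjusted p 0.00138). Both genes also passed after median-ratio rescaling, Srsf4 with a limma adjusted p of 0.00251 and Srsf2 with 0.00765. Srsf2 passed without any 1 of the 6 libraries, and Srsf4 did not pass without GFP replicate 2 (relative change 0.99, limma adjusted p 0.0727).

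The remaining calls, of Srsf5, Srsf6 and Srsf7, held on deposited TPM and were lost after median-ratio rescaling. Srsf6 measured 15.2, 19.7 and 11.3 TPM in acute HKO libraries and 19.8, 25.4 and 30.3 TPM in acute GFP libraries, which stand apart only narrowly, with a relative log2 change of -0.32 ± 0.23. Srsf5 and Srsf7 overlapped between the groups, with relative changes of -0.33 ± 0.24 and -0.24 ± 0.22. The limma adjusted p-values were 0.0303 for Srsf5, 0.0234 for Srsf6 and 0.0385 for Srsf7 on deposited TPM, and 0.132, 0.115 and 0.134 after median-ratio rescaling. The call of Srsf5 was lost without acute HKO replicate 1 (relative change -0.15, limma adjusted p 0.0979) and without GFP replicate 3 (-0.19, 0.153). The call of Srsf6 was lost without acute HKO replicate 3 (-0.16, 0.112), GFP replicate 2 (-0.31, 0.0536) or GFP replicate 3 (-0.30, 0.114). The call of Srsf7 was lost without acute HKO replicates 1 (-0.21, 0.0622) or 3 (-0.17, 0.134), or GFP replicates 2 (-0.077, 0.219) or 3 (-0.30, 0.120). Srsf9 measured 8.93, 8.32 and 7.698 TPM in acute HKO libraries and 9.49, 10.9 and 12.4 TPM in acute GFP libraries, a relative change of 0.01. Srsf3, a regulator of splicing and of mRNA export, overlapped between the groups, with a relative change of -0.04, and passed only without GFP replicate 1 (-0.27, limma adjusted p 0.00945). Without overlap, 1 gene of the 7 was higher and 3 were lower (Srsf2, Srsf6 and Srsf9), beside 6.61% of all genes higher and 47.1% lower (53.7% in all).

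**Figure D3:**
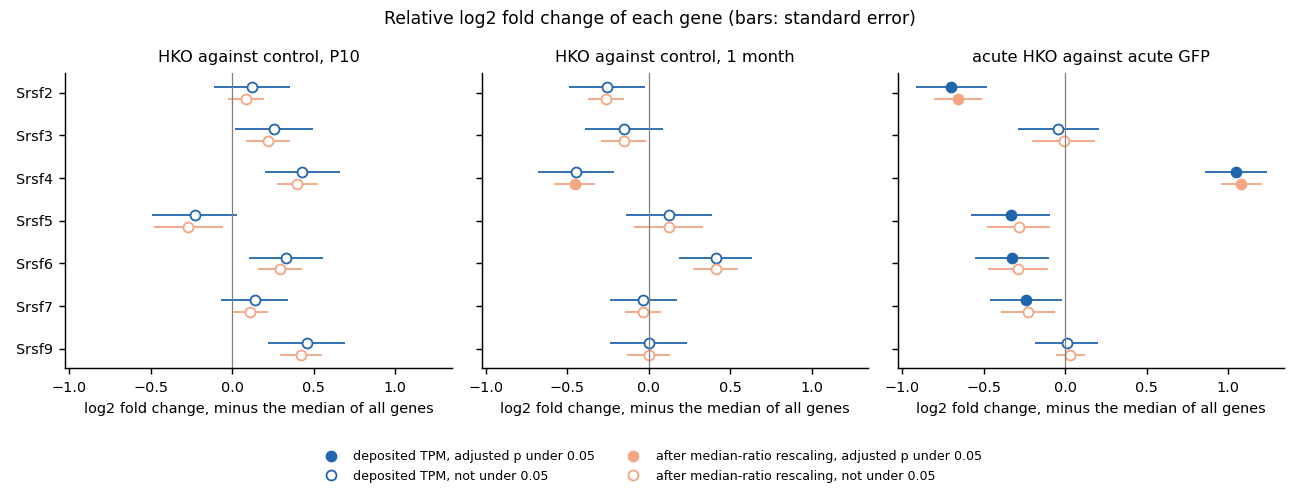
Relative log2 fold change of each gene in the 3 knockout comparisons (points) with its standard error (bars), on deposited TPM and after median-ratio rescaling. Filled points passed an adjusted p of 0.05, tested on the change before the median was taken off. For acute loss Srsf4 lies near 1.05 and Srsf2 near -0.70 with both scalings filled, while Srsf5, Srsf6 and Srsf7 are filled on deposited TPM only.

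Srsf4 was the gene whose knockout effect differed most between the settings. The difference between its acute and its 1 month effect was 1.46 ± 0.27 on the relative log2 scale (limma adjusted p 0.0198, beside 6.83% of all genes), and it was the 1 gene of the 7 to pass. The call was kept on rescaled values (1.54, limma adjusted p 0.000566, beside 13.5% of all genes) and was lost without control replicate 1 at 1 month (1.37, 0.0818), control replicate 2 at 1 month (1.56, 0.0547), acute HKO replicate 1 (1.47, 0.0516) or GFP replicate 2 (1.41, 0.0573). The 1 month effect minus the P10 effect of Srsf4 was -0.88 ± 0.33, with a limma adjusted p of 0.111 on deposited TPM and of 0.0372 on rescaled values, where 4.61% of all genes passed. None of the 7 passed that test on deposited TPM, beside 2.80% of all genes, and Srsf4 was the 1 gene of the 7 with an unadjusted limma p under 0.05, beside 16.4% of all genes; without HKO replicate 2 at 1 month Srsf2, Srsf4 and Srsf9 passed.

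The 2 ages were also compared in the controls. At 1 month, 5 of the 7 genes were lower than at P10 (Srsf3, Srsf5, Srsf6, Srsf7 and Srsf9), beside 38.2% of all genes lower. The relative log2 changes of those 5 ranged from -0.56 for Srsf3 to -0.27 for Srsf9, and none of the 5 passed after median-ratio rescaling. Without control replicate 2 at P10 none passed, without replicate 1 Srsf3 and Srsf7 did, 3 passed without either HKO library of P10 or either control of 1 month, and without control replicate 2 at 1 month the relative change of Srsf5 was 0.058. Srsf4 went the other way, at 18.1 and 17.4 TPM in 1 month controls against 11.57 and 12.6 TPM in P10 controls. Its relative change was 0.95 ± 0.23, and its change before the median was taken off missed the threshold on deposited TPM (limma adjusted p 0.0911). On rescaled values (1.01, limma adjusted p 0.000513) Srsf4 was the 1 gene of the 7 called, beside 26.1% of all genes higher.

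The TPM of each gene were then divided among the annotated classes of its transcripts: protein coding, NMD, retained intron and processed transcript. The last 3, here the noncoding share, made up 34.0 to 46.1% of the summed TPM of the 7 genes in the 14 libraries. It made up 3.91 to 6.54% of the summed TPM of all other genes that have a coding transcript. Abundant genes weigh most in such sums, so the second range is not that of a typical gene. After acute loss the share of the 7 genes was 39.2, 42.6 and 46.1% in acute HKO libraries, against 35.96, 36.1 and 34.0% in acute GFP libraries. At P10 it was 34.3 and 39.4% in HKO libraries, against 39.5 and 37.9% in controls, and at 1 month 44.75 and 38.0% in HKO libraries, against 43.3 and 39.6% in controls. The groups were apart in the acute model and overlapped at both earlier ages. Among single genes in the acute model, the noncoding share of Srsf2, Srsf3 and Srsf6 was higher in every acute HKO library and that of Srsf9 lower, while Srsf4 and Srsf5 overlapped. With NMD transcripts alone counted as noncoding, the acute difference was 6.21 points for Srsf2, 1.36 for Srsf3 and 7.29 for Srsf6. Without transcripts under 1 TPM on average, Srsf9 had no noncoding share left in any comparison. Of all genes with transcripts of both kinds, 33.2% were higher without overlap and 10.4% lower. At P10 Srsf6 was higher and Srsf9 lower without overlap (beside 20.8% higher and 20.1% lower, 40.9% in all), and at 1 month Srsf6 was higher and Srsf4 and Srsf9 lower (beside 17.0% and 11.7%, 28.6% in all). An exact two-sided permutation test of 3 libraries against 3 cannot go below 0.1, the value for those 4 genes, and 2 against 2 cannot go below 0.33. Srsf7 has a single transcript in the table, Srsf7-201, so it has no shares.

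**Figure D4:**
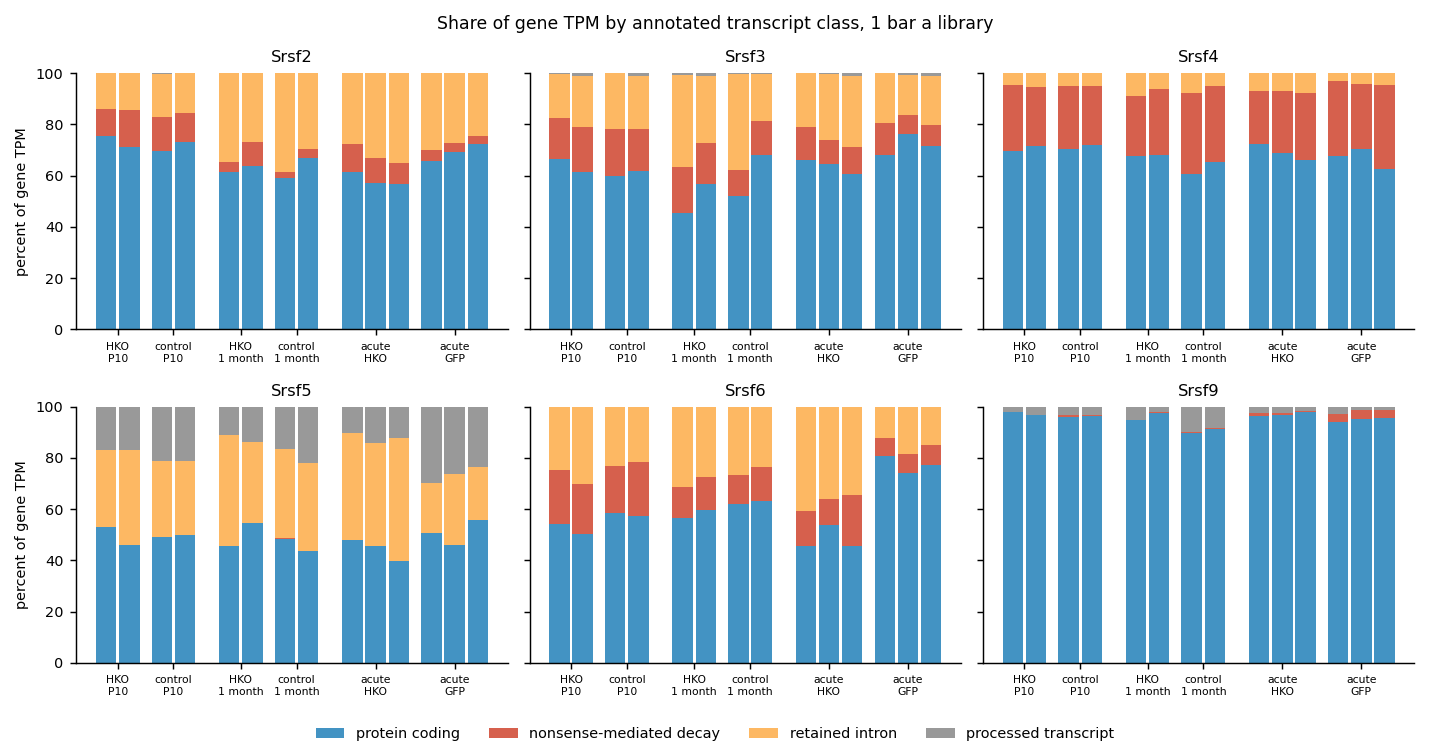
Percent of each gene's TPM in annotated protein-coding, nonsense-mediated decay, retained-intron and processed transcripts, 1 bar a library, for the 6 genes with more than 1 transcript. The coding part of Srsf6 covers 45.5 to 53.8% in the acute HKO bars and 74.2 to 80.7% in the acute GFP bars.

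Gene classes were tested like genes, 17 in the acute fit and 16 in the fit of the other libraries. After acute loss 8 of the 17 passed, 2 higher and 6 lower, beside 8.26% of all gene classes higher and 33.8% lower; on rescaled values 6 were higher and 3 lower, beside 16.2% and 26.8%. No gene class of the family passed at P10 (beside 8.33% of all) or at 1 month (beside 4.63%), and on rescaled values 1 did at 1 month, the NMD class of Srsf4 (-0.67, limma adjusted p 0.0233, beside 8.76%). Of the 42 single transcripts, 24 reached the minimum mean of 1 TPM in the acute fit and 23 in the other. Of those, 3 passed as higher and 7 as lower after acute loss, beside 9.65% and 35.0% of all transcripts, while 1 passed at P10 (beside 6.04%) and none at 1 month (beside 2.94%). On rescaled values 9 were higher and 5 lower after acute loss (beside 17.2% and 27.9%), 2 passed at P10 (beside 5.34%) and 3 at 1 month (beside 6.97%).

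Transcripts of Srsf5 with the downstream donor lay lower in knockouts in all 3 comparisons. The coding transcript Srsf5-205, with the downstream donor, measured 4.70 and 4.04 TPM in HKO libraries at P10, against 9.47 and 9.46 TPM in controls. It measured 1.70 and 2.37 TPM in HKO libraries at 1 month, against 5.28 and 4.03 TPM in controls. Acute HKO libraries held 0.217, 0.671 and 0.249 TPM of it, against 4.08, 3.11 and 6.01 TPM in acute GFP libraries. Every knockout library was below every control. The relative log2 change was -1.22 ± 0.22 at P10 (limma adjusted p 0.0361), -0.90 ± 0.22 at 1 month (0.0692) and -1.59 ± 0.23 after acute loss (0.000165). After median-ratio rescaling it passed in all 3 (limma adjusted p 0.0137, 0.0157 and 0.00133). The P10 call was lost on leaving out any 1 of the 4 P10 libraries, with limma adjusted p-values of 0.0979 to 0.260, and the acute call was kept without any 1 of the 6.

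Srsf5-211, the short transcript with the same exon 1 donor, measured 17.2 and 15.4 TPM in HKO libraries at P10, against 24.3 and 24.8 TPM in controls. It measured 7.52 and 9.45 TPM in HKO libraries at 1 month, against 16.97 and 12.6 TPM in controls. After acute loss it fell to 1.87, 5.43 and 3.33 TPM in acute HKO libraries, against 15.6, 15.5 and 26.5 TPM in acute GFP libraries. The relative log2 change was -0.82 ± 0.24 at P10 (limma adjusted p 0.202), -0.73 ± 0.24 at 1 month (0.180) and -1.82 ± 0.30 after acute loss (0.000365). After median-ratio rescaling it passed in all 3 (0.0427, 0.0389 and 0.00373). Among transcripts that leave at an upstream donor, Srsf5-202 changed by -0.001, 0.29 and -0.07 on the relative log2 scale in the P10, 1 month and acute comparisons, and passed in none. Srsf5-201 passed as lower in the acute model alone (-0.54 ± 0.28, limma adjusted p 0.0238), a call lost without acute HKO replicate 1 (0.0585) or GFP replicate 3 (0.0644). Srsf5-206, a processed transcript, fell to 2.72, 3.98 and 3.61 TPM in acute HKO libraries, against 5.37, 6.98 and 5.07 TPM in acute GFP libraries. Its relative change was -0.25 ± 0.20 (limma adjusted p 0.0269), a call lost after median-ratio rescaling (0.187) and without acute HKO replicates 1 (0.119) or 3 (0.0552) or GFP replicate 2 (0.143).

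The share of the downstream donor was computed among transcripts that join exon 1 to exon 2, a measure chosen after the transcript values were seen. It was 13.98 and 11.7% in HKO libraries at P10, against 21.5 and 21.5% in controls. It was 9.77 and 10.6% in HKO libraries at 1 month, against 19.2 and 22.0% in controls. It was 4.56, 8.82 and 6.47% in acute HKO libraries, against 28.5, 22.2 and 24.4% in acute GFP libraries. Knockouts lay below controls throughout, by 8.69 percentage points at P10, 10.4 at 1 month and 18.4 after acute loss. The diffSplice test of limma on introns that share an acceptor called this site in the acute model (adjusted p 0.000446, beside 22.9% of sites called) and not at P10 (0.713, beside 0.468%) or 1 month (0.437, beside 0.130%). The acute call was kept without any 1 of the 6 libraries, with differences of 16.7 to 19.9 points. In acute GFP libraries Srsf5-211 made up a mean of 20.0% of Srsf5 TPM and Srsf5-205 4.62%, so this share rests mostly on Srsf5-211. Srsf5-211 also ends in a different exon 2, and the donor and that ending were not tested apart.

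The retained-intron transcript Srsf5-212, which keeps 1229 bases of a later intron, uses an upstream donor and makes up 16.7 to 42.7% of Srsf5 in the libraries. Its share rose by 19.0 points in the acute model, to 36.95, 36.3 and 42.7% in acute HKO libraries against 16.7, 24.15 and 18.01% in acute GFP libraries. Without retained-intron transcripts the downstream donor share was 19.5 and 18.0% in HKO libraries at P10, against 29.7 and 29.2% in controls. It was 16.8 and 15.1% in HKO libraries at 1 month, against 28.5 and 32.6% in controls, and 7.66, 14.5 and 12.1% in acute HKO libraries, against 34.8, 30.0 and 30.3% in acute GFP libraries. Groups stayed apart in all 3 comparisons, but how often donor shares of other genes do so was not computed. Separation is common for noncoding shares, where it held in either direction for 40.9% of genes with P10 libraries. The rate was 28.6% for 1 month libraries and 43.6% after acute loss. With 2 libraries against 2, an exact permutation test cannot go below 0.33. Srsf5 was called for transcript usage in the acute model (diffSplice adjusted p 0.00145) and in neither of the others. Of the members, Srsf2, Srsf3, Srsf4, Srsf5 and Srsf6 entered this test. Srsf5 and Srsf6 were the 2 called, both in the acute model only. Calls made up 35.5% of all genes tested in the acute model, 0.586% at P10 and 0.234% at 1 month. The letters GGAGA, a motif known for SRSF1, do not occur on either strand in the 126 bases added to exon 1 by the downstream donor. Of 44457 different 126-base ends of annotated first exons in spliced transcripts, 26.0% hold it on the transcript's own strand and 41.1% on either strand. The rest of Srsf5 was not searched for the motif, and binding of SRSF1 was not tested.

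**Figure D5:**
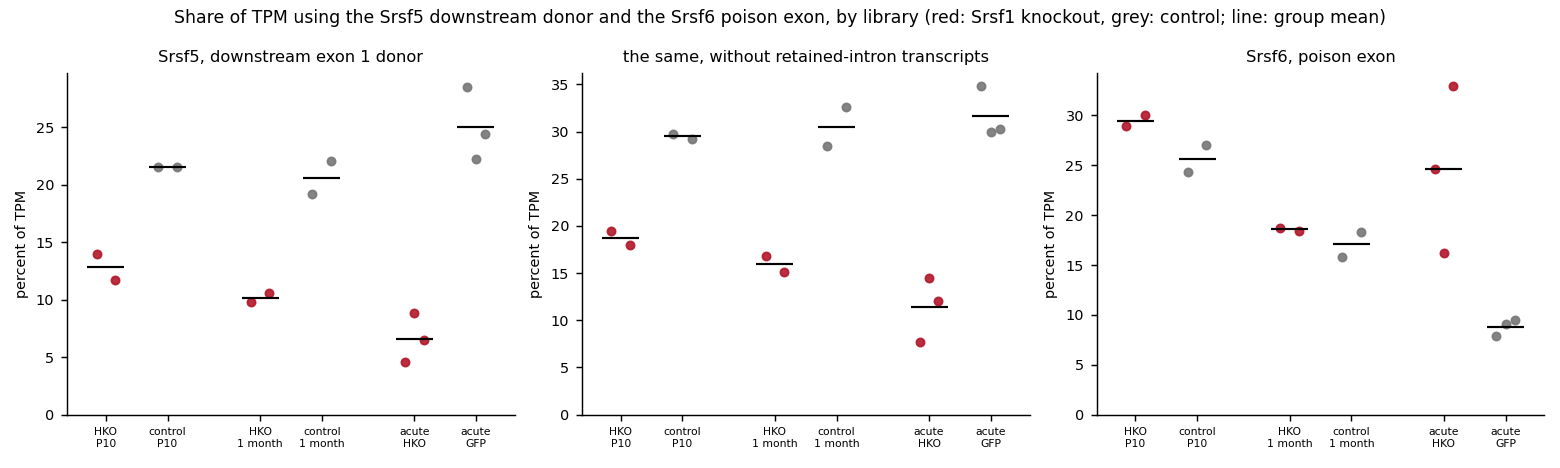
The first panel gives the downstream exon 1 donor as a percent of the TPM of Srsf5 transcripts that join exon 1 to exon 2. The second leaves out retained-intron transcripts. The last gives the poison exon as a percent of the TPM of Srsf6 transcripts spliced from the end of exon 2. Points are libraries and lines group means, with red for knockout and grey for control. The acute HKO points lie at 4.56 to 8.82% in the first panel, against 22.2 to 28.5% for acute GFP, and at 16.2 to 33.0% in the last, against 7.92 to 9.47%.

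Srsf6, a factor that binds exonic enhancers, had the largest change of coding share in the acute model and at P10 among the 6 genes with more than 1 transcript, while at 1 month the changes of Srsf3, Srsf4 and Srsf9 were larger. Its coding share was 45.5, 53.8 and 45.5% in acute HKO libraries, against 80.7, 74.2 and 77.3% in acute GFP libraries. At P10 it was 54.2 and 50.2% in HKO libraries, against 58.5 and 57.5% in controls, and at 1 month 56.5 and 59.5% in HKO libraries, against 61.9 and 63.2% in controls. The knockouts lay lower in each comparison, by 29.1, 5.81 and 4.48 points in the acute model, at P10 and at 1 month. The coding transcript Srsf6-203 fell to 6.81, 10.56 and 4.96 TPM in acute HKO libraries, against 15.9, 18.8 and 23.4 TPM in acute GFP libraries. Its relative log2 change was -0.95 ± 0.26 (limma adjusted p 0.00253), and the call was kept after median-ratio rescaling (0.0125) and without any 1 of the 6 libraries.

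The noncoding forms of Srsf6 did not fall with it. Srsf6-204, which keeps the intron, measured 6.15, 7.13 and 3.87 TPM in acute HKO libraries and 2.44, 4.67 and 4.49 TPM in acute GFP libraries, and the NMD transcript Srsf6-201 measured 2.11, 1.98 and 2.28 TPM and 1.37, 1.88 and 2.41 TPM in the same groups. Their relative log2 changes were 0.83 ± 0.26 and 0.49 ± 0.19. Before the median was taken off, their changes did not pass on deposited TPM (limma adjusted p 0.155 and 0.597). Both passed after median-ratio rescaling (limma adjusted p 0.0356 and 0.0318). As shares of Srsf6, Srsf6-204 took 40.5, 36.1 and 34.3% in acute HKO libraries against 12.4, 18.4 and 14.8% in acute GFP libraries, and usage of Srsf6 was called (diffSplice adjusted p 0.00140). The share that joins exon 2 to the poison exon was taken among transcripts spliced from the end of exon 2, which leaves out Srsf6-204. This measure, chosen after the transcript values were seen, was 24.6, 16.2 and 33.0% in acute HKO libraries against 7.92, 9.09 and 9.47% in acute GFP libraries. The difference of 15.8 points was called among introns that share a donor (diffSplice adjusted p 0.00185, beside 21.9% of donors called), and was 11.58 points without acute HKO replicate 3 and 19.98 without replicate 2, with the call kept. At P10 this share was 28.9 and 30.0% in HKO libraries against 24.4 and 27.0% in controls, and at 1 month 18.7 and 18.4% against 15.8 and 18.3%. Neither was called (diffSplice adjusted p 1.00 in both, beside 0.310% and 0.031% of donors called).

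Srsf2 lies on the minus strand of chromosome 11 (116849901 to 116853094) and overlaps Mettl23 and Mfsd11 on the other strand, at 5.56 to 11.57 and 2.49 to 5.64 TPM; whether the quantification used strand is not stated for these files. The coding transcript Srsf2-201 fell to 10.4, 12.8 and 10.3 TPM in acute HKO libraries, against 19.5, 30.5 and 36.6 TPM in acute GFP libraries. Its relative log2 change was -0.89 ± 0.24 (limma adjusted p 0.00222), and it passed without any 1 library and after rescaling. The retained-intron transcript Srsf2-203 fell to 4.79, 7.65 and 6.51 TPM in acute HKO libraries, against 9.30, 12.5 and 12.6 TPM in acute GFP libraries. Its relative change was -0.41 ± 0.21 (limma adjusted p 0.0140), a call lost after median-ratio rescaling (0.0617) and without acute HKO replicate 1 (0.0662) or GFP replicate 2 (0.0524). The NMD transcript Srsf2-204 moved the other way, to 1.77, 2.08 and 1.36 TPM in acute HKO libraries against 0.706, 0.751 and 1.12 TPM in acute GFP libraries. Its relative change was 0.92 ± 0.19 (limma adjusted p 0.0324, 0.00566 after rescaling), a call lost without acute HKO replicates 1 (0.0872) or 2 (0.119), or GFP replicates 1 (0.0600) or 2 (0.118). As a share of Srsf2, Srsf2-204 took 10.2, 9.004 and 7.35% in acute HKO libraries against 2.29, 1.64 and 2.168% in acute GFP libraries. At 1 month it took 3.27 and 8.37% in HKO libraries against 1.502 and 2.085% in controls, and at P10 9.87 and 14.2% against 12.5 and 10.61%. Knockouts were above controls in the acute model and at 1 month, and the P10 groups overlapped. Srsf2 was not called for usage in the acute model (diffSplice adjusted p 0.251), where Srsf2-204 was below the minimum for that test.

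After acute loss the coding and the retained-intron transcript of Srsf4 rose, and its NMD transcripts passed after rescaling only. Its coding transcript Srsf4-202 measured 16.1, 15.4 and 13.4 TPM in acute HKO libraries, against 8.58, 8.38 and 9.17 TPM in acute GFP libraries, a relative log2 change of 1.07 ± 0.18 (limma adjusted p 0.00881). The retained-intron transcript Srsf4-201 measured 1.52, 1.56 and 1.56 TPM against 0.362, 0.484 and 0.673 TPM, a relative change of 1.13 ± 0.17 (limma adjusted p 0.00514). Both calls were kept after rescaling. That of Srsf4-202 was kept without any 1 library, and that of Srsf4-201 without any 1 GFP library, while without an acute HKO library it was below the minimum of 1 TPM. The NMD transcript Srsf4-203 measured 1.43, 1.72 and 1.67 TPM in acute HKO libraries, above the 0.878, 0.951 and 1.38 TPM of acute GFP libraries. Its relative change was 0.70 ± 0.18 on deposited TPM (limma adjusted p 0.139) and 0.63 after rescaling (0.0106). Srsf4-204, also NMD, overlapped between the groups, at 3.17, 3.67 and 3.61 TPM in acute HKO and 2.85, 2.07 and 3.42 TPM in acute GFP libraries, with relative changes of 0.62 on deposited TPM (limma adjusted p 0.286) and 0.60 after rescaling (0.0448). The coding share was 72.4, 68.8 and 66.2% in acute HKO libraries and 67.7, 70.5 and 62.6% in acute GFP libraries, and usage was not called (diffSplice adjusted p 0.0942). The antisense gene Gm12992, inside Srsf4, stood at 0.155 to 0.328 TPM.

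The retained-intron share of Srsf3 was 21.1, 26.0 and 27.7% in acute HKO libraries and 19.5, 15.3 and 19.2% in acute GFP libraries, apart by 6.92 points on average. Usage was not called (diffSplice adjusted p 0.197). The share joining the poison exon was taken among transcripts spliced from the end of the exon before it. It was 16.4, 12.5 and 14.55% in acute HKO libraries and 15.5, 9.145 and 10.4% in acute GFP libraries, which overlap. At 1 month it was 28.3 and 22.1% in HKO libraries against 16.5 and 16.3% in controls, a difference of 8.81 points that was not called (diffSplice adjusted p 1.00). Processed pseudogenes of Srsf3 and Srsf5 with near-identical sequence were listed at 0.06 TPM or less. Srsf9 was 89.7 to 97.8% coding in all libraries. Its coding share was 96.4, 96.8 and 97.8% in acute HKO libraries and 94.1, 95.1 and 95.5% in acute GFP libraries.

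The 7 genes also stand in the gene tests that the submitters ran. At P10 the authors' deposited table lists Srsf4 (log2 fold change 0.42, adjusted p 0.0182) and Srsf9 (0.42, 0.0107) as higher, 2 of 7 beside 13.4% of its genes higher and 11.8% lower (25.3% in all). At 1 month the authors' deposited table has none of the 7 under 0.05, beside 13.5% of its genes (8.97% higher and 4.53% lower), with Srsf4 at -0.55 (adjusted p 0.0948). For acute loss the authors' deposited table lists Srsf4 as higher (1.01, adjusted p 1.31e-07) and Srsf2 as lower (-0.79, adjusted p 0.000168), beside 16.4% of its genes higher and 16.1% lower (32.5% in all). The adjusted p-values of Srsf5, Srsf6 and Srsf7 in the authors' deposited table were 0.153, 0.161 and 0.139.

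Genes that work with SR proteins were followed as 5 lists, chosen with earlier results of these data known. On deposited TPM none of their tested members passed at P10, beside 12.7% of all genes, or at 1 month, beside 6.86%. After acute loss, again on deposited TPM, 4 of 8 SR-related splicing factors fell, with a list median of -0.19 on the relative log2 scale, among them the coactivator Srrm1 (-0.59 ± 0.22, limma adjusted p 0.00341) and the splicing regulators Tra2a (-0.54) and Tra2b (-0.35). Of 11 SR protein kinases and phosphatases 2 fell, the phosphatase subunit Ppp1cc (-0.97) and the SR kinase Srpk1 (-0.25), with a median of 0.10. Of 8 import and export factors 3 fell, among them Tnpo1 (-0.39) and Tnpo3 (-0.34), the importin that carries SR proteins into the nucleus, with a median of 0.19. Of 14 NMD factors 5 fell, among them Upf2 (-0.52), Upf3a (-0.45) and the exon junction protein Eif4a3 (-0.30), with a median of -0.08. Of 12 SR-like regulators 6 fell and 1 rose, with Luc7l3 (-0.60), Rsrc1 (-0.53) and Luc7l (-0.36) named, and a median of -0.21. These shares stand beside 34.8% of all genes lower in that comparison. After median-ratio rescaling the acute calls were 2 higher and 2 lower among the SR-related factors, 2 and 2 among the kinases and phosphatases, 1 and 1 among the import and export factors, 0 and 5 among the NMD factors, and 4 and 5 among the SR-like regulators. Over all genes on that scaling 41.6% were called, 1391 higher and 2730 lower. Tra2a, Tra2b and Tnpo3 were not among them, and at 1 month Tra2a, Ppp1cc and Tnpo3 passed as lower on rescaled values, beside 7.84% of all genes lower.

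The genes whose log2(TPM + 1) followed each member most closely were sought by Pearson correlation over the 14 libraries among 6059 genes, as a description. Libraries share ages and models, and most members were highest at P10. Closest were Dcun1d5 to Srsf2 (0.98), the helicase gene Ddx39b to Srsf3 (0.99), Sdf2 to Srsf5 (0.98), Zdhhc16 to Srsf6 (0.98), Acin1 to Srsf7 (0.99) and the actin regulator gene Cfl1 to Srsf9 (0.996). Srsf4 was followed most closely by Saa3, an acute phase gene (0.92), and Lrrfip2 (0.91).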

How the data were processed

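Per the submitters' processing notes, bcl2fastq 2.17.1.14, kallisto 0.46.0 and DESeq2 were used with build GRCm38 (mm10). The authors deposited transcript TPM for 14 libraries, each library scaled to the same total, so depth is unknown and count tests were not used. Their gene tables hold, per the file headers, the mean normalized signal (baseMean), a log2 fold change, a test score and a p-value with its adjusted value, as deposited. Classes and exons came from GENCODE M21, and Srsf7 was matched by identifier without version. Kallisto estimates annotated transcripts only, so other forms are unseen and shares of similar transcripts depend on its model.

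Gene TPM were summed and tested as log2(TPM + 1) with limma 3.58.1 in R 4.3.3 (eBayes with trend, two-sided, features averaging at least 1 TPM). P10 and 1 month shared a fit of 8 libraries, the acute model had its own of 6, and the difference of effects used all 14. Usage was tested with diffSplice on transcripts or introns with at least 5% of their gene, and called at an adjusted p under 0.05 with a share change of at least 10 points. Scripts were tested on simulated data. Alternatives covered scaling, pseudocount, filter, the replicate number as a block, and leaving out each library. All members were named, with transcripts that passed or moved by 10 points, up to 3 genes a list by smallest p, and the closest correlated genes. Members and lists were chosen with earlier results of these data known.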

Additional observations from a re-analysis of the deposited data

Results flagged for a closer look

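The effect of Srsf1 loss on Srsf4 differed between the acute model and the HKO model at 1 month by 1.46 on the relative log2 scale. Srsf4 was higher in all 3 acute HKO libraries than in all 3 acute GFP libraries, and lower in both HKO libraries at 1 month than in both controls. The acute animals were 10 weeks old and the others 1 month, and the controls differ in genotype and virus, so age and model cannot be told apart.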

How the results depend on the processing

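Over single genes, classes, transcripts and shares, 1812 of 1949 alternative values kept their side of the threshold or moved less than the spread. Another 84 lost a call, 39 gained one and 13 moved. The 1 counted as reversed was Srsf5 by age in controls without control replicate 2 at 1 month (0.058). Its values without 1 library ran from -0.69 to 0.058. Shares that changed sign by less than the spread are not counted as reversed. The Srsf2 noncoding share difference at P10 was -2.09 points, and 0.0966 without HKO replicate 1. That of Srsf5 at 1 month was -3.95 points, and 0.553 without HKO replicate 2. Without 1 library the summed noncoding difference ran from -4.397 to 0.66 points at P10 and from -3.439 to 3.299 at 1 month. It stayed positive in the acute model. Median-ratio rescaling gave, of the 7 genes, 1 call at 1 month, 2 in the acute model, 1 by age in controls and 1 for the interaction; of gene classes 1 at 1 month; and of transcripts 2 at P10 and 3 at 1 month. The P10 transcript call went to 0 with protein-coding scaling, a pseudocount of 0.1 or no filter. Protein-coding scaling gave 3 genes by age, beside 759 higher and 3937 lower among all 12337 genes tested. It gave 2 for acute minus 1 month, beside 117 higher and 662 lower among all 11910. No filter on low values gave 2 genes in the acute model and 3 by age, and its median gene is unexpressed. Counting NMD transcripts alone, the summed noncoding difference was 1.26 points at P10 and 3.21 in the acute model. Leaving out 1 library gave 0 to 0 transcripts at P10; 0 to 1 genes and 0 to 1 classes at 1 month; 2 to 6 genes, 5 to 9 classes and 5 to 11 transcripts in the acute model; 0 to 7 genes by age, 0 to 3 for the interaction and 0 to 3 for acute minus 1 month. The causes were not tested. For no filter, the replicate block and leaving out libraries, shares over all features are not given. Those counts describe the members only and do not set them apart from other genes.

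With the replicate number as a block, calls were 0 genes, 0 classes and 0 transcripts at P10, none at 1 month, and 4 genes, 7 classes and 9 transcripts in the acute model, where Srsf7 (limma adjusted p 0.0667) and its class, and the transcript Srsf5-206 (0.0504), were lost; usage calls were 0, 0 and 2. Samples of the same number shared deviations at r = 0.013 at P10, 0.277 at 1 month and -0.003, 0.278 and 0.242 in the acute model, where replicate 1 correlated better with another number, so the numbers are not taken to pair the libraries. Depth is unknown, so its limits cannot be given.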
